A study of Homo sapiens with 9 samples.

Results

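Gefitinib-resistant HCC4006 cells were compared with the parental cells they were selected from, over all genes on the array. HCC4006 is an established human lung adenocarcinoma line in which EGFR, the epidermal growth factor receptor gene, is mutated. The comparison uses the 6 arrays labelled resistant without a second compound (3 arrays) or parental (3 arrays), out of 9 arrays in the series. Resistant cells had 6 months of gefitinib, an EGFR kinase inhibitor, at stepwise higher concentrations. Parental cells are of the same line and had no gefitinib. Whether the sequence of EGFR changed during selection was not measured. The other 3 arrays are of cells that had gefitinib for 6 months together with SB431542, an inhibitor of the TGFβ type I receptor kinase. They enter the tests only through the shared estimate of spread.

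The labels name no parental culture kept for the same 6 months, so gefitinib and time in culture cannot be told apart. It is not stated how many clones the resistant cells hold, whether cells were harvested in gefitinib, or whether the 3 replicates were separate cultures. All p-values reflect only how far these arrays spread, and part or all of that spread may be technical.

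EGFR signalling keeps lung epithelial cells growing, and a kinase inhibitor takes that input away from tumours that depend on it. Cells that survive long selection can change their state, a shift often described by adhesion and cytoskeletal markers. Such cells also differ in what they secrete, how they sort membrane proteins and which enzymes they make.

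The deposited values are linear intensities, 1 per gene name and array, between 72.65 and 11566.7. Array medians lay between 91.1 and 91.3. Background was still in the values: the 95th percentile of 393 rows for olfactory receptors, genes that lung cells are not known to use, was 93.3, and 47.7% of 30672 genes had a mean above it. Folds of genes near that level in one group are understated. The number of arrays limits the precision. Arrays of one group correlated at 0.996 to 0.997, and arrays of different groups at 0.967 to 0.969.

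A gene was counted as higher or lower only with a stable call. This means an adjusted p under 0.05 (limma, Benjamini-Hochberg over all genes) with all arrays and again with each of the 9 arrays left out in turn, and a change of at least 1.5-fold. "Rose" and "fell" are used only for such genes. Changes are log2 differences of group means ± SE, and intensities are mean ± SD (n = 3). Stable calls were made for 6.88% of all genes. They comprised 982 genes that were higher (3.2% of all genes, 6.71% of those above background) and 1127 that were lower (3.67% and 7.71%). The groups did not overlap for any of these 2109 genes. The groups stood apart in this way for 34.5% of all genes. By the adjusted p alone, 3143 genes were higher (10.2%) and 3131 lower (10.2%). At least 4-fold changes were seen for 55 higher and 93 lower genes. The median change of all genes was 0.0045, and that of genes above background was 0.020.

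FLNC, which encodes the actin cross-linker filamin C, read 109, 119 and 116 in parental and 3501, 3062 and 3767 in resistant cells. It rose by 4.90 ± 0.13 (29.9-fold, adjusted p = 1.28e-15). Every parental value lay a little above background and every resistant value at 3062 or more, as the plot of large changes shows. CLDN11, a claudin gene, rose by 4.16 ± 0.10, from 118 ± 8.09 to 2104 ± 70.1. Other genes with large rises encode a chemokine scavenger receptor (ACKR3, 3.74), a BMP antagonist (GREM1, 3.59), an enzyme that methylates nicotinamide (NNMT, 3.40), an endocytic adaptor (DAB2, 3.30) and an enzyme of branched-chain amino acid turnover (BCAT1, 2.84).

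The largest fall was that of SCGB3A1, a secretoglobin gene of airway secretory cells, which read 3707, 3840 and 3751 in parental and 110, 114 and 115 in resistant cells. It fell by 5.06 ± 0.09 (33.3-fold, adjusted p = 3.76e-17). HOPX, a homeodomain gene of alveolar type 1 cells, read 2726, 2368 and 2432 in parental and 99.04, 101 and 108 in resistant cells. MGP, which encodes matrix Gla protein, an inhibitor of calcification, fell from 7476 ± 247 to 363 ± 32.9. MGP was among the brightest genes of parental cells, above the 99th percentile of all values (5957). Further falls of this size were those of the cystatin genes CST1 (-4.21) and CST4 (-3.88), RNASE1, a secreted ribonuclease gene (-3.71), the tetraspanin genes TSPAN8 (-3.79) and TSPAN12 (-3.42), the MAPK pathway inhibitor SPRY1 (-3.51), the chemokine gene CX3CL1 (-3.49) and the gluconeogenic enzyme gene FBP1 (-3.43). CST1 and CST4 have near-identical paralogs, so their signals may be shared between them.

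**Figure D1:**
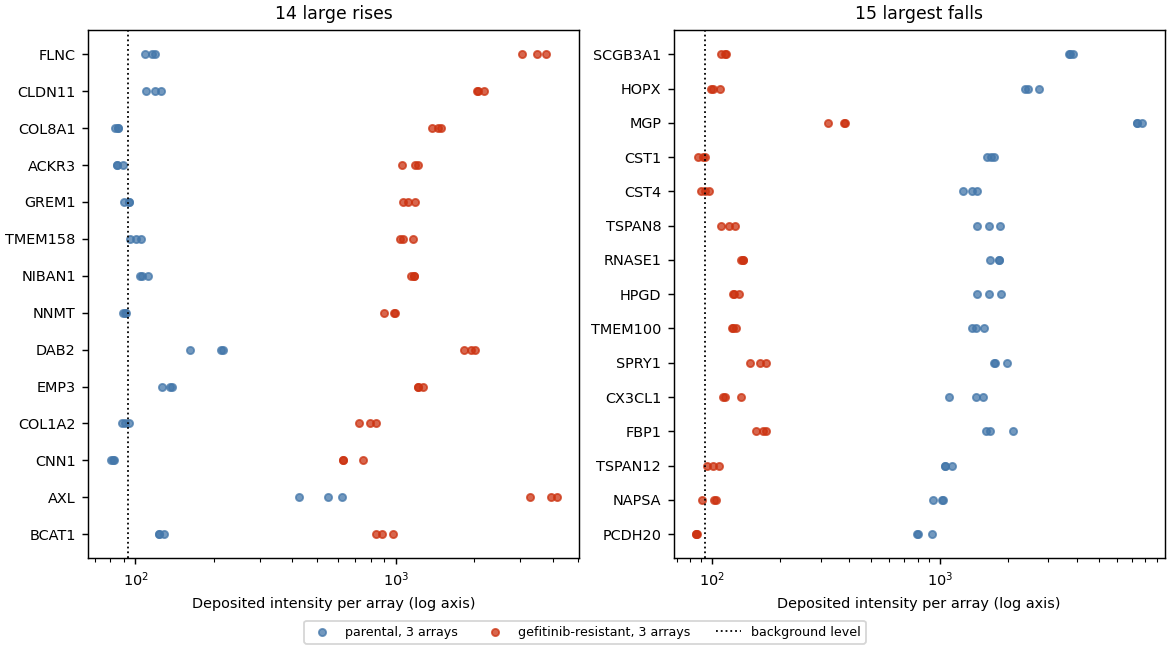
Deposited intensity on each parental and resistant array (log axis) of 14 genes with large rises (left) and of the 15 largest falls (right). Each point is 1 array, and the dotted line is the background level of 93.3. The 2 groups stand apart for every gene drawn.

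Some genes crossed the background level altogether. In 37 genes all parental arrays lay at or under background and the resistant mean reached at least 2 times that level, and in 21 genes the reverse held. FOLR3, a folate-binding protein gene, was at 84.7 ± 0.97 in parental and 488 ± 21.3 in resistant cells. THY1, which encodes a surface glycoprotein of fibroblasts and neurons, was at 83.5 ± 1.38 and 412 ± 17.1. COL8A1, CNN1, ALPK2, RGS4, SH3GL3 and PRUNE2 were also switched on in this sense. PCDH20, a protocadherin gene, went the other way, from 842 ± 74.97 to 85.6 ± 0.42. Other genes that ended at background were ABCA4, a retinoid transporter gene (-3.00), SLC34A2, the phosphate transporter gene of alveolar type 2 cells (-2.95), CYSLTR1, a leukotriene receptor gene (-2.56), FGF19, an endocrine growth factor gene (-2.36), GABBR2, a GABA receptor subunit gene (-2.22), and SLC5A1, the sodium-coupled glucose transporter gene (-1.83). These folds are understated, since background is part of the lower value.

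The labelled cell type was checked against markers. Of 9 epithelial lung adenocarcinoma markers, 6 fell and 1 (KRT8) rose, with summed intensities of 16190 to 18061 on parental and 7595 to 7882 on resistant arrays. EPCAM and KRT19 stayed far above background in resistant cells (2606 ± 99.1 and 1415 ± 46.1), and the surfactant gene SFTPB lay at background in both groups. Of 8 fibroblast markers, THY1 and LUM rose, and the means of DCN, PDGFRA, PDGFRB and COL3A1 were under background in both groups. All 3 arrays lay at background for 7 of the 8 markers in parental and for 3 in resistant cells. A change above 0 was seen for 7 of the 8. Summed intensities of the 8 markers were 689 to 694 on parental and 1184 to 1221 on resistant arrays. Of 11 leukocyte markers, CD14 fell and none rose, and PTPRC, which defines leukocytes, was at background (sums 2303 to 2422 and 2442 to 2524). Of 10 endothelial markers, ENG rose (sums 884 to 897 and 924 to 952).

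Genes were next described by function, in 45 lists with 1187 measured genes, of which 127 were higher and 171 lower. The plot of stable calls per list shows where these lay. Another 1803 genes with a stable call were on no list.

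**Figure D2:**
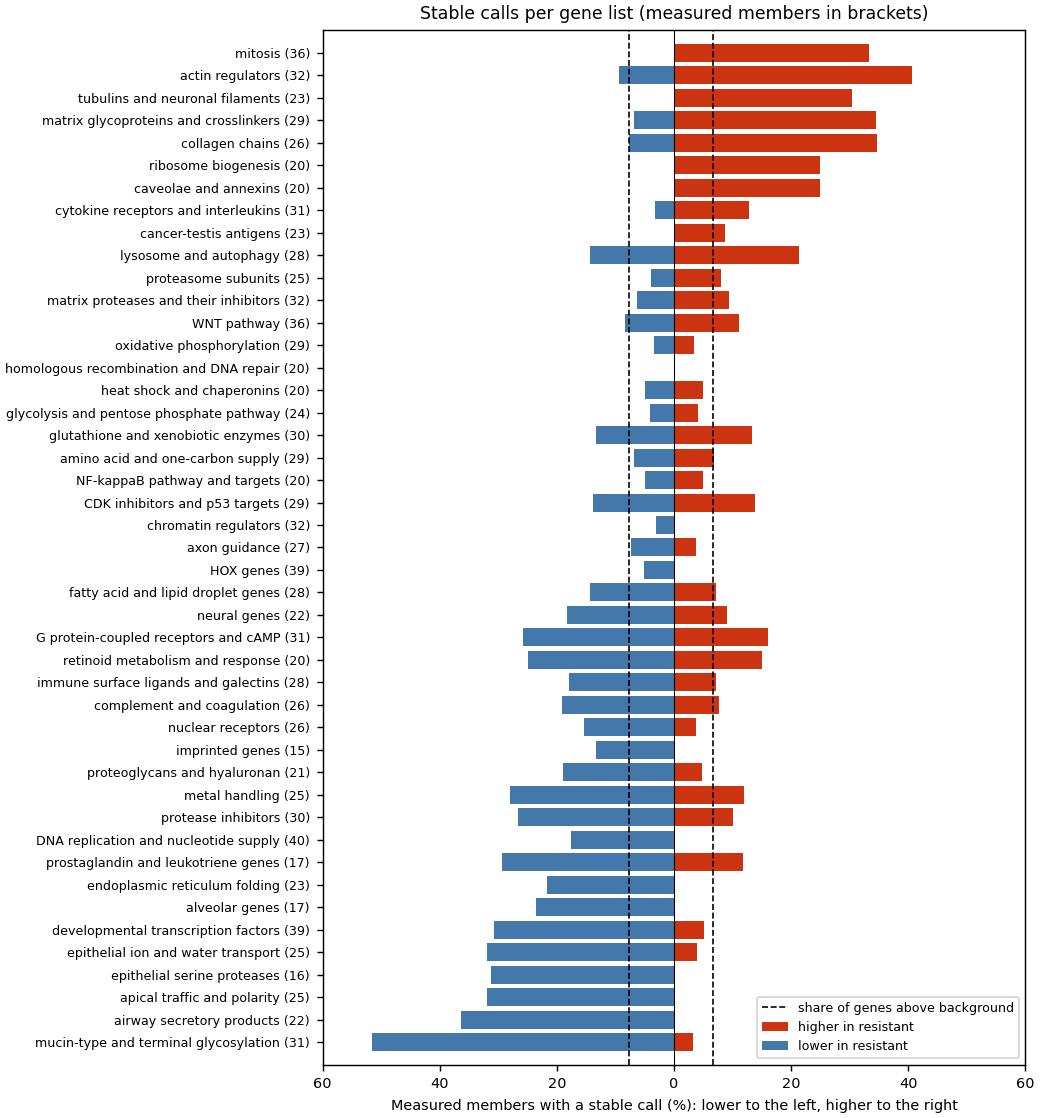
Percentage of the measured members of each gene list with a stable call, lower to the left (blue) and higher to the right (red). Dashed lines mark the shares among all genes above background (7.71% lower, 6.71% higher). Glycosylation and airway secretory products stand at the bottom with 16 of 31 and 8 of 22 members lower, and mitosis stands at the top with 12 of 36 members higher.

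Several secretory products of the airway were lower in resistant cells. Of 22 airway secretory products, 8 were lower and none higher. Only 10 of the 22 were above background, and the list's median change was -0.13. TCN1, which encodes a vitamin B12 binding protein, read 1190, 1138 and 1098 in parental and 134, 134 and 131 in resistant cells. AGR2, a disulfide isomerase gene needed for mucin folding, fell from 7882 ± 165 to 1090 ± 91.3 (-2.86 ± 0.09). LCN2, the siderophore-binding lipocalin gene, PIGR, the polymeric immunoglobulin receptor gene, TFF3, WFDC2 and SLPI fell as well. Of 17 alveolar genes 4 were lower and none higher: HOPX, NAPSA, SLC34A2 and NKX2-1, the last a master regulator of lung fate (-1.19 ± 0.09).

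The enzymes that decorate mucins and other glycoproteins were the list with the largest share of lower calls. Of 31 genes for mucin-type and terminal glycosylation, 16 were lower (51.6%) and 1 was higher, and the median was -0.59. GCNT3, which builds branched core structures of mucin glycans, read 4665, 4906 and 5089 in parental and 599, 570 and 543 in resistant cells. It fell by 3.10 ± 0.12 (adjusted p = 1.94e-13). ST3GAL5, the GM3 ganglioside synthase gene, fell from 1337 ± 194 to 170 ± 6.75. MGAT4A, which branches N-glycans, fell by 1.95, and the fucosyltransferase genes FUT3, FUT2 and FUT8 by 1.23, 0.97 and 0.79. The 1 gene that rose was GCNT1, which makes the same core 2 branch as GCNT3: it read 168, 133.5 and 146 in parental and 400, 419 and 397 in resistant cells (1.45 ± 0.09). The pair of core 2 enzymes thus moved in opposite directions without overlap.

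Of 23 genes for folding in the endoplasmic reticulum, 5 were lower, none was higher and 18 had no stable call (median -0.11). ERP27, a redox-inactive disulfide isomerase family gene, fell from 1303 ± 62.7 to 155 ± 6.96. ERN2, a stress sensor of mucus-secreting epithelia, fell by 1.67 and KDELR3, a retrieval receptor gene, by 1.25. CREB3L4 and CREB3L2, transcription factor genes tied to secretory capacity, fell by 0.93 and 0.71.

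Of 25 genes for transport of ions and water across the epithelium, 8 were lower, 1 was higher and 16 had no stable call (median -0.23). SCNN1A, the α subunit gene of the epithelial sodium channel, read 2503, 3188 and 3132 in parental and 334, 318 and 319 in resistant cells (-3.18 ± 0.14). The chloride channel gene ANO1 fell by 1.92 and the chloride cotransporter gene SLC12A2 by 1.30. CA12, a membrane carbonic anhydrase gene, was the 1 that rose (1.81 ± 0.11). Of 16 epithelial serine proteases, 5 fell and none rose. PRSS8, whose protease can activate the sodium channel, fell from 2641 ± 247 to 414 ± 11.2, and TMPRSS2 fell to background.

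Of 25 genes for polarity and for carrying membrane proteins to the apical surface, 8 were lower, none was higher and 17 had no stable call (median -0.23). RAB25, a small GTPase gene of apical recycling, read 1959, 1980 and 2141 in parental and 325, 346 and 316 in resistant cells (-2.62 ± 0.11). CRB3, an apical polarity determinant, fell from 573 ± 37.1 to 162 ± 6.04. AP1M2, the epithelial clathrin adaptor subunit gene, fell from 318 ± 22.0 to 116 ± 5.31. MAL2, RAB17, MYO5C, VAMP8 and STX19 fell by 2.35, 1.72, 1.31, 0.87 and 0.72.

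The promoters of these apical genes are shown because they hold a letter pattern in common. RefSeq promoters (GRCh38.p14, 250 bases before to 50 after the gene start) were searched on both strands for the E-box letters CACCTG, which read CAGGTG on the other strand. Of the 8 apical genes that fell, 7 had a promoter in the table and 6 of these held the letters: CRB3 5 times, RAB17 and AP1M2 3 times, RAB25 2 times, and MYO5C and STX19 1 time each. VAMP8 had no match. The share was 8 of 18 promoters for the whole list (44.4%), 24.8% of 821 promoters of lower genes, 14.4% of 735 promoters of higher genes and 19.9% of all 15760 promoters. The AP-1 letters TGANTCA, the TEAD letters GGAATG, which read CATTCC on the other strand, and the CArG box were searched as well and held by 0, 1 and 0 of the 7 promoters. Their shares over all promoters were 5.84%, 11.8% and 1.19%. The actin regulators described below were searched with the same motifs. Of their 27 promoters, 6 held the CArG box (22.2%), 4 the TEAD letters (14.8%), 3 the E-box letters (11.1%) and 2 the AP-1 letters (7.41%). Of the 11 promoters of higher actin regulators, 2 held the CArG box, 3 the TEAD letters and 0 the others. These motifs and both lists were picked after values were seen, so the shares are a description, and no factor's binding was measured. The 3 promoters below run 5′ to 3′ along the gene's strand, with the matched letters in capitals. They lie at chr19:6464021-6464320 (plus strand), chr19:10587263-10587562 (minus strand) and chr1:156060910-156061209 (plus strand).
CRB3: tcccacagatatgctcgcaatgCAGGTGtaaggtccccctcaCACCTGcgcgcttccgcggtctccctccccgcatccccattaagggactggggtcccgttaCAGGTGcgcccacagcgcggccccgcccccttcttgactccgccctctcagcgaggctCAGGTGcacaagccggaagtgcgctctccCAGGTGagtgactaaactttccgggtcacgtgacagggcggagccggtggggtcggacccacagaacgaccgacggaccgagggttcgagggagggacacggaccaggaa
AP1M2: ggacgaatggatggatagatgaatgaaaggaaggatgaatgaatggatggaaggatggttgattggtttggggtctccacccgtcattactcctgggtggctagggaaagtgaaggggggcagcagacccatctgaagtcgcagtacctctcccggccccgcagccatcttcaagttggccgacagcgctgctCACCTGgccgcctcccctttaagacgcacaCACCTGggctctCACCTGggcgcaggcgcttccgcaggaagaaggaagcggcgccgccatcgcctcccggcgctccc
RAB25: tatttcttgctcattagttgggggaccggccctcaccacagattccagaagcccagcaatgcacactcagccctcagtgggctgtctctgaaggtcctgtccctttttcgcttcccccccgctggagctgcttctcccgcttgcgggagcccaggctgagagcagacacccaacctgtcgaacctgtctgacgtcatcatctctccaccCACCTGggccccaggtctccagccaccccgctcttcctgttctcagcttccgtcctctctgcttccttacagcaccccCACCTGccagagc

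Of 26 collagen chains, 9 were higher and 2 lower (median 0.10). COL8A1, a chain of network-forming collagen VIII, read 83.6, 85.8 and 85.3 in parental and 1381, 1456 and 1490 in resistant cells. COL1A2 rose by 3.10, COL12A1 by 1.99, COL11A1 by 1.61 and COL4A5 by 1.55. The 2 that fell were COL17A1, a hemidesmosome collagen gene (-1.44), and COL5A2 (-1.33), while its partner chain COL5A1 rose (1.30). Of 29 matrix glycoproteins and crosslinkers, 10 were higher and 2 lower, the latter being MGP (-4.37), the largest change of the list, and FBLN1 (-0.67). SPOCK1, a matrix proteoglycan gene, rose from 318 ± 33.5 to 1811 ± 255, and LOX, which crosslinks collagen and elastin, from 119 ± 4.33 to 449 ± 14.99. FBN2, SPARC, LOXL1 and POSTN rose by 1.81, 1.69, 1.41 and 1.22. Among 21 proteoglycan and hyaluronan genes (median -0.04), LUM rose (1.38), and HAS3, a hyaluronan synthase gene, SDC1, SDC2 and VCAN fell (-1.73, -1.06, -0.82 and -0.78).

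Proteases and their inhibitors changed in both directions. Of 30 protease inhibitors, 3 were higher, SERPINE2 and SERPINB7 among them, and 8 lower, among them SERPINA3 (-2.38), SERPINA1 (-1.76), and SPINT1 and SPINT2, inhibitors of epithelial serine proteases (-0.87 and -0.85). SERPINE2, which encodes protease nexin, rose from 379 ± 14.8 to 2558 ± 166. PLAT, the tissue plasminogen activator gene whose product protease nexin can inhibit, fell from 864 ± 86.5 to 154 ± 10.4 (-2.49 ± 0.12). Of 32 matrix proteases and their inhibitors, ADAM19 (2.45), ADAMTS1 (1.29) and TIMP2 (0.87) rose, and MMP7 (-2.91) and PLAT fell. These calls were 15.6% of the list, near the 14.4% of genes above background.

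Actin regulators were the list with the largest share of higher calls. Of 32 genes 13 were higher (40.6%) and 3 lower (median 0.33). CNN1, the smooth muscle calponin gene, read 82.5, 81.6 and 80.3 in parental and 629, 630 and 745 in resistant cells. FSCN1, which bundles actin in protrusions, rose from 406 ± 18.3 to 2282 ± 73.9, and MYLK, the myosin light chain kinase gene, from 187 ± 13.5 to 920 ± 20.2. TPM1, ACTN1, ZYX and VCL rose by 1.16, 1.13, 1.08 and 0.62. LCP1, the leukocyte plastin gene, fell by 1.45 ± 0.08, and the unconventional myosin genes MYO10 and MYO5B fell by 0.83 and 0.64. Of 23 tubulins and neuronal filaments 7 were higher and none lower, led by STMN3 (1.71), MAP1B (1.23) and TUBB4B (1.23), which encode a tubulin-binding stathmin, a microtubule-associated protein and a β-tubulin. Of 20 caveola and annexin genes 5 were higher and none lower. CAV1 and CAVIN1, which build caveolae, rose from 1126 ± 11.99 to 3494 ± 76.2 and from 1771 ± 234 to 5212 ± 102.

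Among cell cycle genes, the calls were all higher in the mitosis list and all lower in the DNA replication list. Of 36 mitosis genes, 12 were higher, none was lower, and 34 had a change above 0 (median 0.45). CENPF, a kinetochore protein gene, read 369, 426.5 and 491 in parental and 1114, 1034 and 950 in resistant cells (1.28 ± 0.12). The mitotic kinase gene AURKA rose from 2346 ± 418 to 4873 ± 207, AURKB by 1.00, and BIRC5, a subunit of the same complex as AURKB, by 0.89. PLK1 was the lowest member at -0.13 and did not pass. Of 40 replication and nucleotide supply genes, none was higher and 7 were lower (median -0.06). E2F2, a transcription factor of the G1/S transition, read 625, 705 and 650 in parental and 272, 258 and 254 in resistant cells (-1.33 ± 0.14). CCNE2, POLE2, MCM6 and PRIM1 fell by 1.25, 1.04, 0.80 and 0.74. The difference between the lists was not tested, and cell cycle phase was not measured.

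**Figure D3:**
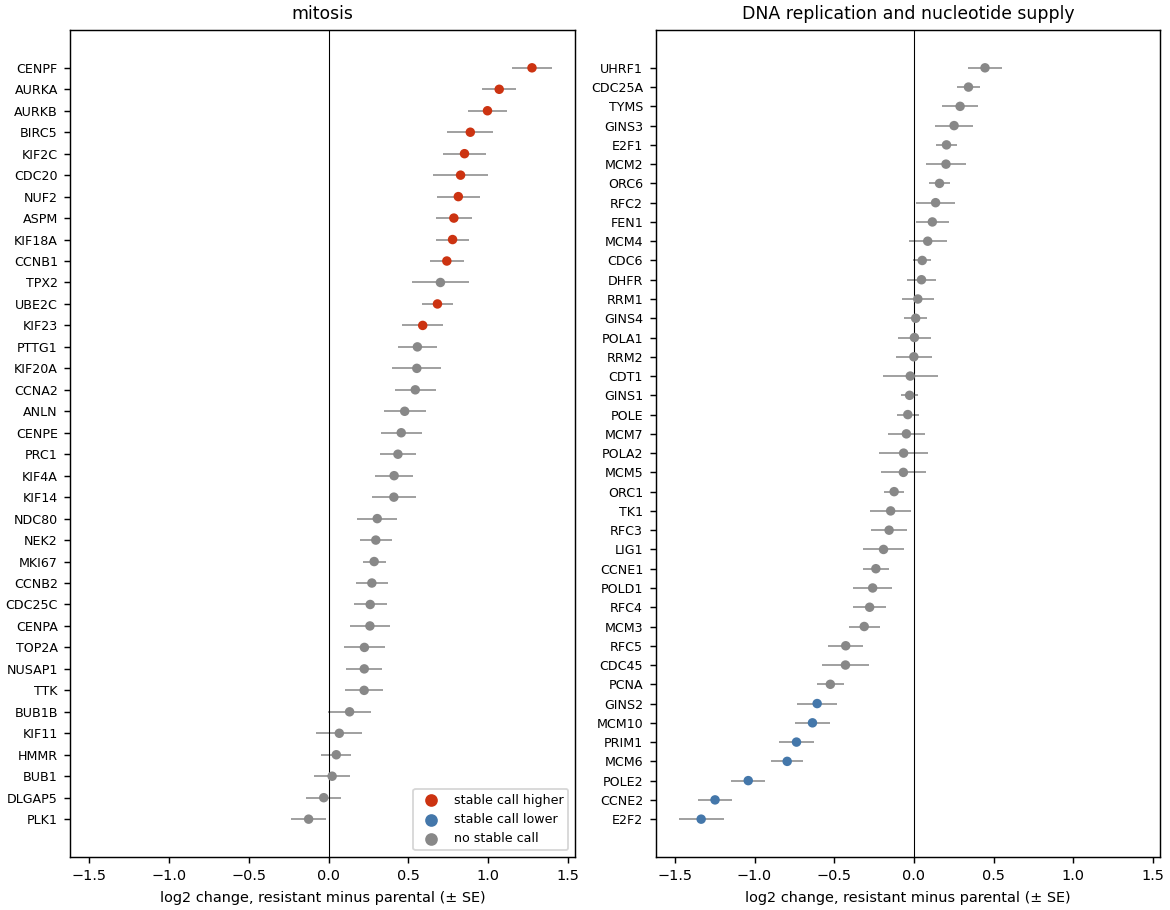
Change of each gene of the mitosis list (left, 36 genes) and of the DNA replication list (right, 40 genes), as the log2 difference of resistant minus parental means with its SE. Red points are stable calls higher (12 and 0), blue points stable calls lower (0 and 7).

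Growth and stress genes gave a mixed picture. Of 20 ribosome biogenesis genes, 5 were higher and none lower (median 0.30): MYC, which drives the process, rose from 307 ± 19.2 to 731 ± 54.6 (1.25 ± 0.12), and LYAR, BYSL, PES1 and RRP12 rose by 0.71 to 0.81. Among 29 CDK inhibitors and p53 targets, PLK2 (1.69), GADD45A (1.38), GADD45B (0.84) and BAX (0.83) rose, and GDF15 (-1.58), TP53INP1 (-1.17), CDKN1A (-0.93) and TP53I3 (-0.67) fell. GADD45A read 369, 367 and 365 in parental and 1002, 842 and 1031 in resistant cells. CDKN1A, the p21 gene, read 1273, 1509 and 1200 and then 684, 693.5 and 708. In the list of 20 homologous recombination and DNA repair genes none had a stable call; BARD1 had the largest change (-0.56 ± 0.12, adjusted p = 0.00194), which was under 1.5-fold. Of 25 proteasome subunits, PSMB7 (1.18) and PSMD2 (0.68) rose and PSMC6 (-0.75) fell. These calls were 12% of the list, against 14.4% of genes above background.

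Transcription factors of epithelial and lung development were mostly lower among those that changed. Of 39 developmental factors, 12 were lower and 2 (PAX6 and FOXC1) higher, with a median of -0.03. EHF, an epithelial ETS factor, fell from 1496 ± 312 to 245 ± 12.7, and SPDEF, a factor of goblet cell differentiation, from 478 ± 51.5 to 168 ± 5.11. FOXA2, SOX2 and SOX9 fell by 1.41, 1.10 and 1.08. Of 39 HOX genes, HOXD1 and HOXC13 fell and none rose. This share (5.13%) lies between the lower shares of all genes (3.67%) and of genes above background (7.71%). Among 26 nuclear receptors NR2F2 rose (0.92 ± 0.16) and its paralog NR2F1 fell (-0.76 ± 0.06), together with PPARG, NR3C2 and NR2F6. HDAC9 was the 1 called gene among 32 chromatin regulators (-0.73), a share of 3.12% against 14.4% of genes above background.

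Retinoid genes changed at several steps. Of 20 genes, 5 were lower and 3 higher. CRABP2, which carries retinoic acid to its receptor, read 5032, 5393 and 5288 in parental and 583, 621 and 610 in resistant cells (-3.11 ± 0.09). ALDH1A3 and DHRS9, which take part in making retinoic acid, fell by 1.75 and 2.23, and PLAAT4, a retinoid-responsive gene, by 1.80. CYP26B1, which degrades retinoic acid, rose from background (86.7 ± 4.71) to 293 ± 26.0. The receptor gene RXRA rose by 1.43.

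Lipid mediators showed falls in synthesis and in breakdown. Of 17 prostaglandin and leukotriene genes, 5 were lower and 2 higher. HPGD, which inactivates prostaglandins, read 1654, 1452 and 1868 in parental and 125, 124 and 132 in resistant cells (-3.70 ± 0.11). PTGS2, the inducible cyclooxygenase gene, fell from 2218 ± 186 to 689 ± 44.4, and the phospholipase genes PLA2G10 and PLA2G4A fell by 2.28 and 1.60. PTGS1 and PTGES2 rose by 0.62 and 0.84. Among 28 fatty acid genes FABP5 (1.72) and PLIN2 (0.82) rose, and LIPG, SCD, ELOVL7 and ACSL5 fell, SCD from 5342 ± 1082 to 2412 ± 109.

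Of 24 glycolysis and pentose phosphate genes, SLC2A3, a high-affinity glucose transporter gene, rose from background to 400 ± 23.3 and ALDOC fell by 1.29. Of 29 oxidative phosphorylation genes, NDUFV1 rose (0.59) and UQCRC2 fell (-0.998). Of 29 amino acid and one-carbon genes, SLC3A2 and CEBPB rose (0.74 and 0.70), and ASNS and PYCR1 fell (-0.75 and -0.61). The shares of these 3 lists lie near or under those of all genes above background. In the list of 30 glutathione and xenobiotic enzymes, 4 were higher and 4 lower. AKR1C3, a ketosteroid reductase gene, read 108, 101 and 105 in parental and 482, 496 and 508 in resistant cells (2.25 ± 0.07). GCLM and GCLC, which encode the 2 subunits of glutamate-cysteine ligase, went in opposite directions (0.80 and -0.93).

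Iron genes and cathepsins also split. Of 25 metal handling genes, 7 were lower and 3 higher. The metalloreductase genes STEAP1 and STEAP2 fell by 2.20 and 1.08, SLC11A2, an iron importer gene, by 1.02 and SLC40A1, the iron exporter gene, by 1.23, while both ferritin chains, FTL and FTH1, rose (0.95 and 0.70). Of 28 lysosome and autophagy genes, 6 were higher and 4 lower. CTSB, a cathepsin gene, read 435, 460 and 390 in parental and 1813, 1843 and 1738 in resistant cells, and CTSL and CTSD rose by 1.48 and 1.07. CTSH, a cathepsin gene of alveolar type 2 cells, fell from 3974 ± 272 to 847 ± 55.1, and CTSV fell by 1.04.

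Receptors and secreted signals included single large changes. IL11, a cytokine gene of the IL-6 family, read 108, 104 and 101 in parental and 641, 741 and 638 in resistant cells (2.68 ± 0.10), and IL7R, IL32 and IL6 rose by 1.40, 1.11 and 0.77. These 4 and IL17RB (-0.63) were the calls among 31 interleukin and receptor genes. Of 31 G protein-coupled receptor and cAMP genes, 5 were higher and 8 lower. OXTR, the oxytocin receptor gene, rose from 130 ± 3.47 to 608 ± 19.4 and RGS4, a brake on G protein signalling, from background to 436 ± 45.6. LPAR1, ADGRF1 and PDE4B fell by 1.52, 1.57 and 1.30. Of 36 WNT pathway genes, FZD2 (2.03), DKK3 (0.97), WNT5B (0.93) and ROR2 (0.66) rose, and FZD6, LRP5 and FZD4 fell. These were 11.1% higher and 8.33% lower (median -0.08), against 6.71% and 7.71% of genes above background. Of 27 axon guidance genes, SEMA3C rose (0.82), and SEMA4D and SEMA3A fell (-0.71 and -0.63). The called shares of the axon guidance (11.1%) and interleukin (16.1%) lists lie near or under the 14.4% of genes above background.

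Surface proteins that meet the immune system were more often lower than higher. The 3 membrane complement inhibitors CD59, CD55 and CD46 all fell, by 1.57, 1.34 and 0.90. CD59 read 1654, 1568 and 1526 in parental and 574, 505 and 521 in resistant cells. With F12 and C5 they made 5 lower genes of 26 in the complement and coagulation list, where C1S and CFI rose. Of 28 immune surface ligands and galectins, 5 were lower and 2 higher: VTCN1, an inhibitory B7 family gene (-2.03), TNFSF10, which encodes the death ligand TRAIL (-1.78), LGALS9, LGALS8 and LGALS3 fell, and LGALS1 and NT5E rose. LGALS1 rose from 2738 ± 360 to 5837 ± 382. Of 20 NF-κB genes, TNIP1 rose (0.65) and NFKBIZ fell (-0.87), a called share of 10% against 14.4% of genes above background.

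Among 22 neural genes, 2 were higher and 4 lower. BEX1 rose from 509 ± 38.4 to 3384 ± 109 while its relatives BEX5 and BEX4 fell (-1.60 and -0.63), and CADM1 rose by 1.95. Of 23 cancer-testis antigens, the related family members MAGEA12 and MAGEA6 rose from background (0.89 and 0.63), and their signals may be shared within the family. This share (8.7%) lies near the 6.71% of genes above background that were higher. Of 15 imprinted genes NDN and SNRPN fell (-1.52 and -0.65). Of 20 heat shock and chaperonin genes HSPB8 rose (0.77) and DNAJB1 fell (-0.65). The called shares of the imprinted (13.3%) and heat shock (10%) lists lie under the 14.4% of genes above background.

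Changes were also laid out along the chromosomes, in the gene order of RefSeq GRCh38.p14, for 11731 genes above background that have a place there. DNA copy number was not measured. Over 11409 windows of 15 neighbouring genes, the middle window had a median change of 0.018, and the 1st and 99th percentiles were -0.52 and 0.47. The 3 highest windows that share no gene were all on chromosome 9 and the 3 lowest all on chromosome 14. The highest ran from POMT1 to MED22 (median 0.80), where 15 of 15 genes were above 0 and 8 had a stable call, among them TSC1, RAPGEF1 and MED27. The next ran from SLC2A6 to NACC2 (0.74) and from PHPT1 to SSNA1 (0.74). The lowest ran from CDKN3 to PELI2 (-0.82), with 15 of 15 genes below 0 and 11 stable calls, among them GCH1, SOCS4 and LGALS3. Another ran from MOAP1 to SERPINA3 (-0.67).

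The windows belonged to longer stretches. These were taken where the rolling median of 31 genes reached 0.3 in size. Runs of the same direction that lay close together were joined, and those of at least 20 genes were then kept. Genes between joined runs can therefore have a rolling median under 0.3 in size. The rule was chosen after the window values were seen, so no test is given. The longest stretch ran on chromosome 9 from XPA to EHMT1, the last gene of the chromosome among the protein-coding genes above background. Of its 262 genes, 219 were above 0 and 101 (38.5%) had a stable call higher. The median over these genes, relative to the parental mean, was 0.42, 0.41 and 0.45 on the resistant arrays and between -0.01 and 0.02 on the parental arrays. A second stretch on chromosome 9, from UBQLN1 to PHF2 (39 genes), had medians of 0.31, 0.35 and 0.36 on the resistant arrays. On chromosome 9 as a whole, 140 of 481 genes (29.1%) were higher. On the other chromosomes this share ran from 2.17% (chromosome 16) to 12% (chromosome 20). It was 6.67% for the 10968 genes outside the stretches, a set that depends on how the stretches were chosen.

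Chromosome 14 held the lowest stretches. From NYNRIN to NAA30, 87 of 99 genes were below 0 and 41 were lower, with medians of -0.54, -0.56 and -0.51 on the resistant arrays. From TTC8 to DYNC1H1, 52 of 60 genes were below 0 and 27 were lower, with medians of -0.54, -0.50 and -0.51. Smaller lower stretches lay on chromosome 2 (MMADHC to SCN9A, -0.39), chromosome 7 (ZDHHC4 to GSDME, -0.41), chromosome 8 (TMEM64 to NUDCD1, -0.37) and chromosome 16 (NDE1 to IL4R, -0.39). From SEZ6L2 to SETD1A on chromosome 16, 38 of 38 genes were below 0 (-0.33). Higher stretches lay on chromosome 20 (GNAS to PCMTD2, 0.29) and chromosome 22 (MPST to POLR2F, 0.45). The way the stretches were chosen, and centring on the parental mean, set the resistant medians apart from the parental ones, so that gap is no finding; the array values show how far the 3 resistant arrays spread.

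**Figure D4:**
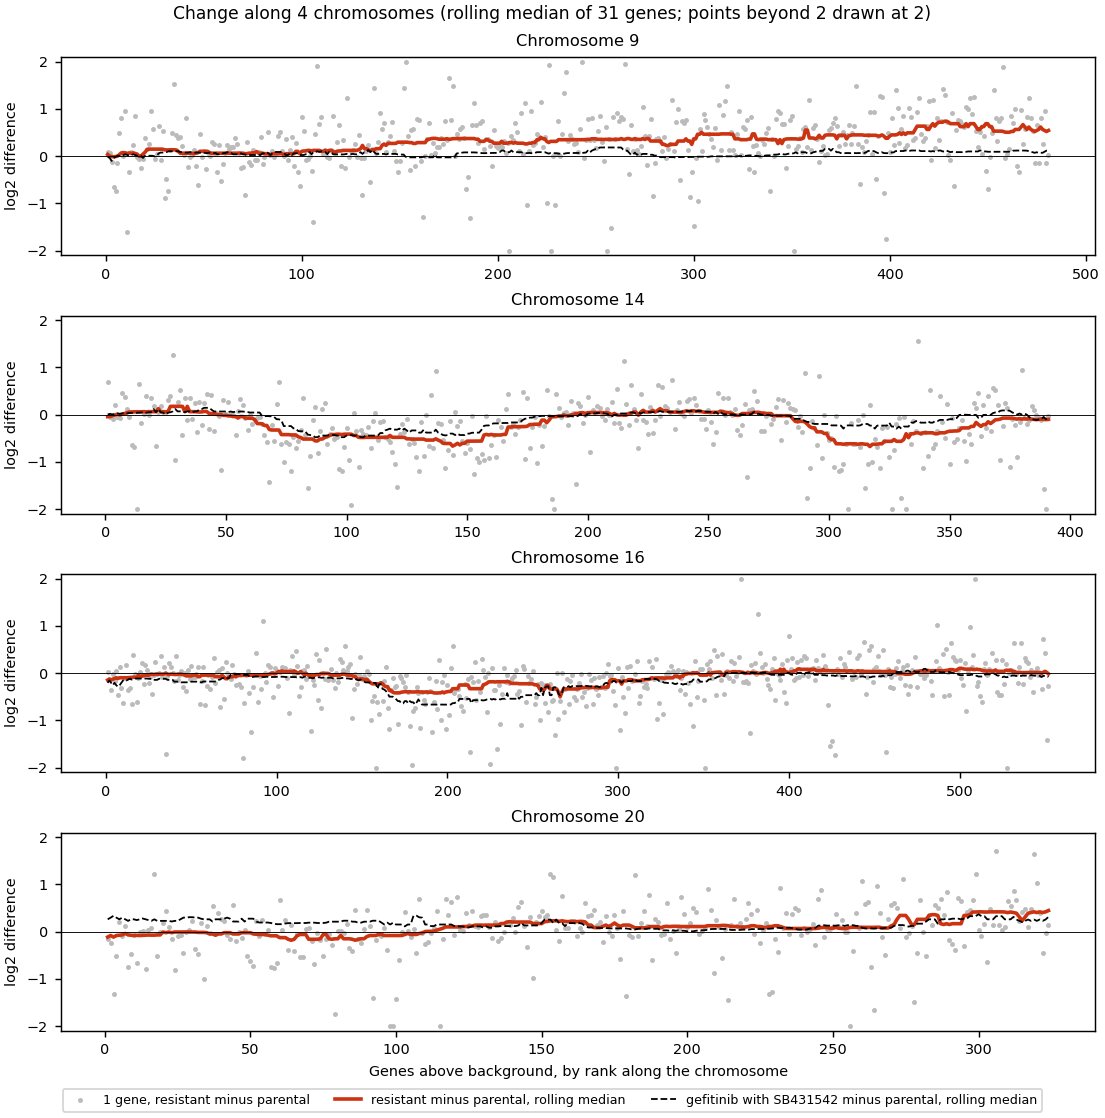
Log2 difference by gene rank along chromosomes 9, 14, 16 and 20. Grey points are single genes (resistant minus parental), the red line is their rolling median over 31 genes, and the dashed line is the rolling median of cells given gefitinib with SB431542 minus parental. The red line stays above 0 over most of chromosome 9 and dips below 0 in 2 places on chromosome 14.

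The cells given gefitinib with SB431542 share the parental arrays with this comparison, so their values are set beside it without a test. Their median was 0.07 in the long chromosome 9 stretch, against 0.42 in resistant cells. It was -0.38 from NYNRIN to NAA30, against -0.52, and -0.23 from TTC8 to DYNC1H1, against -0.53. From NDE1 to IL4R on chromosome 16 it was -0.64, against -0.39, and on chromosome 20 it was 0.26, against 0.29.

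**Figure D5:**
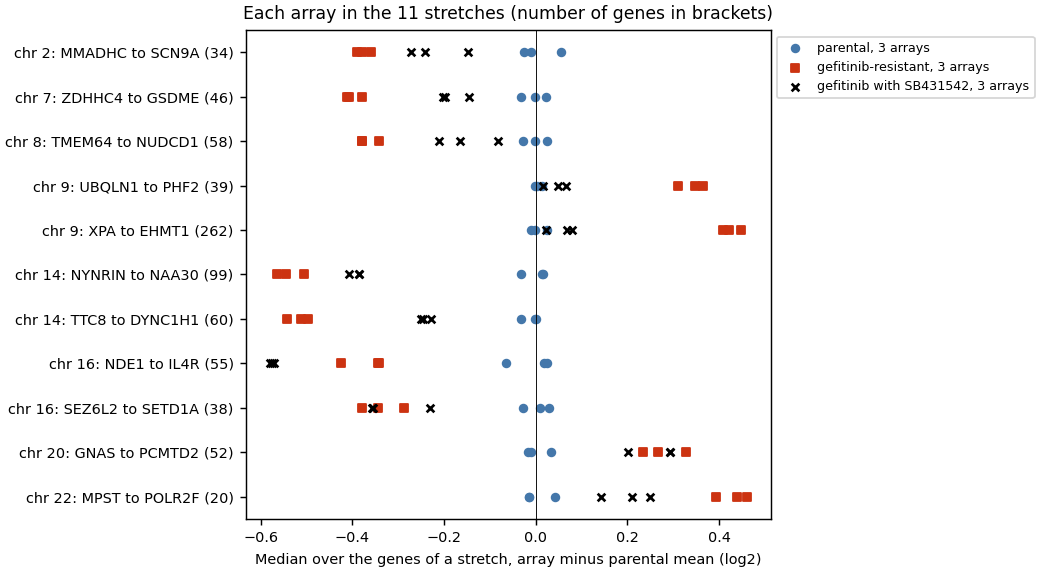
Median over the genes of each of the 11 stretches on each array, as the log2 difference from the parental mean. Circles are parental, squares resistant and crosses gefitinib with SB431542, with 3 arrays each. The gap between parental and resistant arrays follows from the choice of stretches and the centring, and the crosses were not used in that choice.

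Stable calls among the genes of the functional lists lie in these stretches. On chromosome 9 they are RXRA, COL5A1, TUBB4B, PSMB7, CTSL, PTGS1, PTGES2, ENG, ROR2 and S1PR3, and on chromosome 14 NKX2-1, PAX9, LGALS3, POLE2, PSMC6, SERPINA1 and SERPINA3. AGR2 and HDAC9 lie in the lower stretch of chromosome 7, CCNE2, FZD6, GRHL2, SDC2 and TP53INP1 in that of chromosome 8, and GALNT5 in that of chromosome 2. UQCRC2 and ERN2 lie in the chromosome 16 stretch, STMN3 in that of chromosome 20 and LGALS1 in that of chromosome 22. Other members went against their surroundings: LCN2, LPAR1, GALNT12, C5 and SEMA4D fell within the higher stretches of chromosome 9 (-2.38, -1.52, -1.04, -0.86 and -0.71). NID2 rose within a lower stretch of chromosome 14 (0.92) and IL6 within that of chromosome 7 (0.77). The part of a gene's position in its change was not tested. Of the genes with a place, the higher stretches held 136 of 878 higher genes (15.5%) and the lower stretches 141 of 1066 lower genes (13.2%). The higher stretches held 373 (3.18%) and the lower stretches 390 (3.32%) of all 11731 genes with a place. Since the stretches were chosen by these changes, these shares of called genes are a description.

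EGFR and MET, the drug's target and a receptor kinase known for bypassing it, were set beside their neighbours on chromosome 7. EGFR fell by 0.59 ± 0.12, from 671 to 445 (adjusted p = 0.000927). At 1.505-fold, this lay just past the 1.5-fold limit. Of its 16 nearest measured protein-coding neighbours, COBL, an actin nucleator gene, fell (-1.71) and no other had a stable call. PSPH stood at -0.52, NIPSNAP2 at -0.47, SEC61G at -0.27 and VOPP1 at -0.05, while LANCL2 stood at 0.49 and GRB10 at 0.47. MET had a change of -0.54 (adjusted p = 0.0192) with no stable call. Among its neighbours CAV1 rose (1.63), CAV2 stood at 0.48 and CAPZA2 at -0.05.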

How the data were processed

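Total RNA was measured on 9 Illumina arrays, 3 per group. Per the labels' protocols, Trizol extraction was followed by an RNeasy column step with DNase I, and biotin-labelled cRNA was made. The authors deposited 1 intensity per gene name and array on a linear scale. Sorted intensities of the arrays differed by at most 0.018 on the log2 scale from their mean, so the deposited values had been quantile-normalized, with background left in. The sources used here name neither the software nor the handling of several probes per gene.

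Of 34687 rows, 3270 that named only a UniGene cluster were left out. Names were updated with RefSeq (GRCh38.p14): a current symbol was found for 17757 rows, a gene number for 2669 and an older symbol for 3303, while 7688 kept their name. For 728 genes with more than 1 row, the row with the highest mean was used.

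limma 3.58.1 under R 4.3.3 was fitted to log2 intensities of 9 arrays, each group having its own mean. The variance prior followed intensity, and Benjamini-Hochberg adjustment covered 30672 genes. The code was tested on simulated data. Replicate numbers do not pair the arrays: same-numbered deviations from the group means correlated at 0.032, 0.036 and -0.015. Alternatives covered the left-out arrays, the parental and resistant arrays alone, a replicate block and the variance prior. They also covered cyclic loess, background subtraction, dim genes, probe rows and UniGene rows. Figures used matplotlib 3.10.9.

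Named genes are the 15 largest rises and falls with groups that do not overlap, the 10 largest changes among genes switched on and off, up to 5 called members per list with the largest change (or the 1 largest change where a list had no call), EGFR and MET with 8 neighbours on either side, and the outer and called genes of the 3 highest and lowest windows. Further members were named after their values were seen, to complete a list's calls. The comparison, members, lists and rules were chosen with earlier results of these data known. No list was given a test. Some genes that these rules take are not reported here.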

Additional observations from a re-analysis of the deposited data

Results flagged for a closer look

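The rows left out of the comparison because they name only a UniGene cluster also held differences. In a fit with these 3270 rows added, 14 of them had a stable call higher in resistant cells and 25 had one lower. Both are smaller shares than the 3.2% higher and 3.67% lower among all genes of the comparison. They were singled out because they lie outside the genes the comparison used, and parental cells served as the control. Their genes are not named in the sources used here.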

How the results depend on the processing

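Leaving out 1 array at a time gave 979 to 1037 genes higher and 1137 to 1181 lower by the adjusted p and the 1.5-fold limit, 36 to 40 switched on and 21 to 27 switched off. By the adjusted p alone, 2550 to 3982 genes were higher and 2654 to 3687 lower, against 3143 and 3131 with all arrays. The upper ends came without inhibitor replicate 2, an array that correlated at no more than 0.991 with its group. With the parental and resistant arrays alone, 3835 genes were higher and 3604 lower by the adjusted p. Stable calls in that fit were 993 higher and 1135 lower. Subtracting background raised the stable calls to 1751 higher and 1927 lower. It gave 213 genes switched on and 215 off, but by another level: a floor of 16 after subtraction took the place of the background level. These 2 counts therefore cannot be set directly against the 37 and 21 of the main rule. Genes at that floor on every array were left out. Changes of the genes with stable calls were a median 1.38 times as large, so that more genes passed the 1.5-fold limit. Cyclic loess left 22 genes switched on, and 41.4% of its stable calls were higher, against 46.6%; the cause was not tested. Single genes were checked only where the naming rules took them, not the further members named to complete a list's calls. None of the checked genes reversed. Those with a stable call kept an adjusted p under 0.05 in all 5076 comparisons with an alternative. The stable call already required this in the 9 fits without 1 array, so that part was fixed in advance. The 1.5-fold limit was not part of this count. With it, 1993 of the 2109 stable calls held without parental replicate 1 and 2010 with cyclic loess. MET passed the adjusted p with all arrays but not without resistant replicate 2 (-0.41, adjusted p = 0.133), nor without 3 other arrays or the intensity trend. The median of the long chromosome 9 stretch ranged from 0.39 to 0.73 and that from NYNRIN to NAA30 from -0.72 to -0.49, the wide ends coming from background subtraction; all 11 stretches kept their direction. Restricting them to genes with a parental mean over 300, an alternative chosen after seeing the data, gave 0.50 and -0.62.

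Replicate numbers did not pair the arrays. With the replicate block, 948 genes had a stable call higher and 1102 lower (2944 and 2974 by the adjusted p alone), and 37 and 21 were switched on and off.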
